A study of Mus musculus with 179 samples.

Results

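The comparison concerned the nucleus accumbens (NAc) of adult male mice that had all met social defeat and had all met early life stress (ELS), and that differed in the window of pup life in which the ELS fell. Mice with ELS on postnatal days 10 to 20 (P10-20, 6 libraries) were set against mice with ELS on postnatal days 2 to 12 (P2-12, 5 libraries). These 11 of the 179 samples of the series were chosen by their labels for sex, region, early life condition and adult condition. Both groups were C57Bl6/j males, both carried the adult condition Defeat, and each library pooled NAc punches of 3 mice taken 24 h after behavioural testing, so each value is an average over mice. For context the same region held 6 libraries of standard-reared defeated males, 4 of undefeated males with ELS P10-20, 4 of undefeated males with ELS P2-12 and 4 of undefeated standard-reared males. Values are the authors' normalised reads per gene, that is, read counts scaled by a factor for each library. A fold change is the difference of means of log2(normalised reads + 1), P10-20 minus P2-12.

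The NAc is the part of the ventral striatum where dopamine from the midbrain meets glutamate input from cortex, hippocampus and amygdala. Most of its neurons are GABA-releasing projection neurons of 2 kinds, one class carrying D1 dopamine receptors and leading the direct pathway, the other carrying D2 receptors, an adenosine receptor and enkephalin and leading the indirect pathway. ELS models disrupt the care that pups receive, and chronic social defeat exposes an adult male to repeated attack by a larger male. The comparison asks whether the pup window of the first stress matters once the second has been met.

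Reads in the table ran from 13.9 to 23.9 M per library in the 11 libraries. Ddx3y, a Y-linked helicase, had 1780 to 2144 normalised reads in them, and Xist, transcribed from an inactive X chromosome, at most 12.5. Projection neuron genes marked the region in every library: Ppp1r1b, which encodes the dopamine-regulated phosphatase inhibitor DARPP-32, had at least 29579 normalised reads, and Penk at least 36299. Drd1, Drd2, Tac1 and Pdyn, the best-known markers of the 2 projection neuron classes, were not analysed here, so the direct and indirect pathway lists rest on 3 and 4 other genes. Markers of cortical glutamate neurons, which can come from neighbouring tissue, varied widely. Their summed level over 6 genes ran from 904 to 6225 in the P10-20 group (median 2192), highest in P10-20 replicate 6. In the P2-12 group it ran from 1458 to 4098 (median 2207), highest in P2-12 replicate 1. In bulk tissue, fewer cells of a type and less RNA per cell cannot be told apart.

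No gene passed adjusted p under 0.05 between the windows in defeated mice (limma over 14000 genes, 0% called). The smallest adjusted p was 0.13, for Mdn1. At an unadjusted p under 0.05, 494 genes had higher values after P10-20 ELS (3.53% of genes tested) and 572 had lower values (4.09%), 7.61% in all; without P2-12 replicate 3 the higher count was 303. Separation of every P10-20 library from every P2-12 library was rarer, with 32 genes higher (0.229%) and 39 lower (0.279%). The median log2 fold change over all genes was -0.00. edgeR on the recovered whole reads also called 0 genes, DESeq2 called 1, Mdn1, with an adjusted p of 0.0125, and limma on the 11 libraries alone called 1, the predicted gene Gm16152, with a log2 fold change of -1.84 and an adjusted p of 0.0337. The genes named below are the 12 with the smallest p on each side among named genes with a mean of at least 20 normalised reads; since none passed, their values are descriptions.

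Mdn1 encodes a very large AAA ATPase that acts in assembly of the large ribosomal subunit, and it lies at chr4:32657114-32775217 (GRCm38). Its normalised reads in the P10-20 group ran from 2729 through a median of 3087 to 3226, against 3493, 3529, 3806, 3458 and 3465 in the P2-12 group. The groups did not overlap, and the P2-12 values lay close together apart from replicate 3. The log2 fold change was -0.23 ± 0.05 (SE), with an unadjusted p of 1.85e-05. Because this gene had the smallest p, 250 bases at its start are shown (RefSeq promoter window, GRCm38.p6, chr4:32656869-32657118, plus strand, the last 5 bases inside the gene span), with a GC box in capitals, read here as CCGCCC, which is GGGCGG on the other strand.
Mdn1 promoter: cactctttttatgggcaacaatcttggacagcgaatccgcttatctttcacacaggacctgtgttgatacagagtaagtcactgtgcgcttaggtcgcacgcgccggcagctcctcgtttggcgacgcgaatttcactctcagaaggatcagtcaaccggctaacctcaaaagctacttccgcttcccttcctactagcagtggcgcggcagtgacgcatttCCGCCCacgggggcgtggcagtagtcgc
A GC box stood on either strand in 32.7% of 32851 windows of the same length. TATAAA (12.4% of windows), CACGTG (6.02%) and TGACGTCA (1.55%), searched on both strands, were not in this window.

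Odz1, the older name of Tenm1 and next by p among genes with lower values after P10-20 ELS, encodes a teneurin, a synaptic adhesion protein (chrX:42527866-43429168). Odz1 had 1557 to 2005 normalised reads in the P10-20 group (median 1697), against 2456, 2020, 2186, 2153 and 1863 in the P2-12 group. P2-12 replicate 5 lay within the P10-20 range, and the log2 fold change was -0.30 (adjusted p = 0.585). Cntnap5c, of the contactin-associated protein family, had 134 to 220 normalised reads after P10-20 ELS (median 178), against 211, 207, 267, 245 and 228 after P2-12 ELS. Only the highest P10-20 library reached the P2-12 range; the log2 fold change was -0.40. Csmd3, a membrane protein with CUB and sushi domains, had 2025 to 2349 normalised reads in the P10-20 group (median 2174), against 2338, 2537, 2490, 2457 and 2629 in the P2-12 group. Its groups overlapped in a single pair of libraries, with a log2 fold change of -0.19.

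Rev3l encodes the catalytic subunit of DNA polymerase zeta, which copies past damaged bases. Its normalised reads were 1666 to 1913 after P10-20 ELS (median 1894), against 1972, 2039, 2171, 2184 and 2061 after P2-12 ELS. The groups did not overlap, and P10-20 replicate 1 lay below the other libraries of its group; the log2 fold change was -0.17. Zfp14, a zinc finger gene, had 223 to 257 normalised reads in the P10-20 group (median 230), against 275, 281, 286, 276 and 273 in the P2-12 group. These groups were separate too, with a log2 fold change of -0.24. Fign, a microtubule-severing AAA ATPase, had 88.7 to 129 normalised reads after P10-20 ELS (median 113), against 142, 136, 173, 139 and 122 after P2-12 ELS. A single P2-12 library lay within the P10-20 range, and the log2 fold change was -0.39. The remaining 5 were Utp14b (-0.34, within the span of Acsl3, with which an unstranded library can share reads), Fam135b (-0.31), Sytl5, a synaptotagmin-like protein (-0.28), Arhgef40, a guanine nucleotide exchange factor (-0.19), and Hmbox1, a homeobox protein that binds telomeres (-0.18). All 6 P10-20 libraries lay below the P2-12 mean for each of the 12 genes, and adjusted p from limma was 0.13 for Mdn1, 0.585 for Odz1 and 0.609 for the other 10. Annotated spans of Odz1, Csmd3, Cntnap5c, Rev3l, Sytl5, Hmbox1 and Arhgef40 also overlap other annotated genes.

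Among genes with higher values after P10-20 ELS, Emcn had the smallest p. It encodes endomucin, a sialomucin of capillary and venous endothelium (chr3:137341062-137431069). Emcn had 204 to 315 normalised reads in the P10-20 group (median 261), against 190, 245, 216, 170 and 185 in the P2-12 group. The P10-20 libraries were all above the P2-12 mean and 5 of 6 above every P2-12 library; the log2 fold change was 0.38 ± 0.10 (SE, adjusted p = 0.609). Its RefSeq promoter window of 250 bases, shown beside that of Mdn1 because the pair lead each side, held none of the 4 motifs (chr3:137340828-137341077, plus strand, GRCm38.p6, the last 16 bases inside the gene span).
Emcn promoter: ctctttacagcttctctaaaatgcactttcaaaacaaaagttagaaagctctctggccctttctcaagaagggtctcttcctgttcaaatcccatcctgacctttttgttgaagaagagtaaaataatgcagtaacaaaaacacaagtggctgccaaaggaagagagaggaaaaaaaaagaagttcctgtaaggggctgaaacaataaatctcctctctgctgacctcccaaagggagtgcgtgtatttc

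Of the 12 genes with higher values, 3 had groups that did not overlap. Csnk2b, the regulatory subunit of casein kinase 2, had 1836 to 1938 normalised reads after P10-20 ELS (median 1914), against 1723, 1812, 1754, 1669 and 1668 after P2-12 ELS. Bcl2l1, which encodes the anti-apoptotic protein Bcl-x, had 3292 to 3504 normalised reads in the P10-20 group (median 3362), against 3111, 3086, 2998, 3129 and 3167 in the P2-12 group. Mosc2, now Mtarc2, a molybdenum enzyme of mitochondria, had 1168 to 1340 normalised reads after P10-20 ELS (median 1237), against 1142, 1162, 1139, 1135 and 1075 after P2-12 ELS. These separations were small in size, with log2 fold changes of 0.14, 0.12 and 0.14. Further genes on this side were Cnih2, an auxiliary subunit of AMPA receptors (0.20), Ppp1r1a, inhibitor-1 of protein phosphatase 1 (0.28), Lmo4, a LIM-only transcription cofactor (0.18), Aga, a lysosomal glycosylasparaginase (0.30), Arf5, a small GTPase of membrane traffic (0.18), Fam131a (0.20) and Tmem205 (0.16). These genes had an adjusted p of 0.609 from limma, and the annotated spans of Csnk2b, Fam131a, Cnih2, Bcl2l1, Tmem205, Mosc2 and Emcn overlap other annotated genes. Each of the 24 genes kept its direction under every alternative tried. They were chosen by smallest p in these same libraries, so the kept directions are not a separate check.

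**Figure D1:**
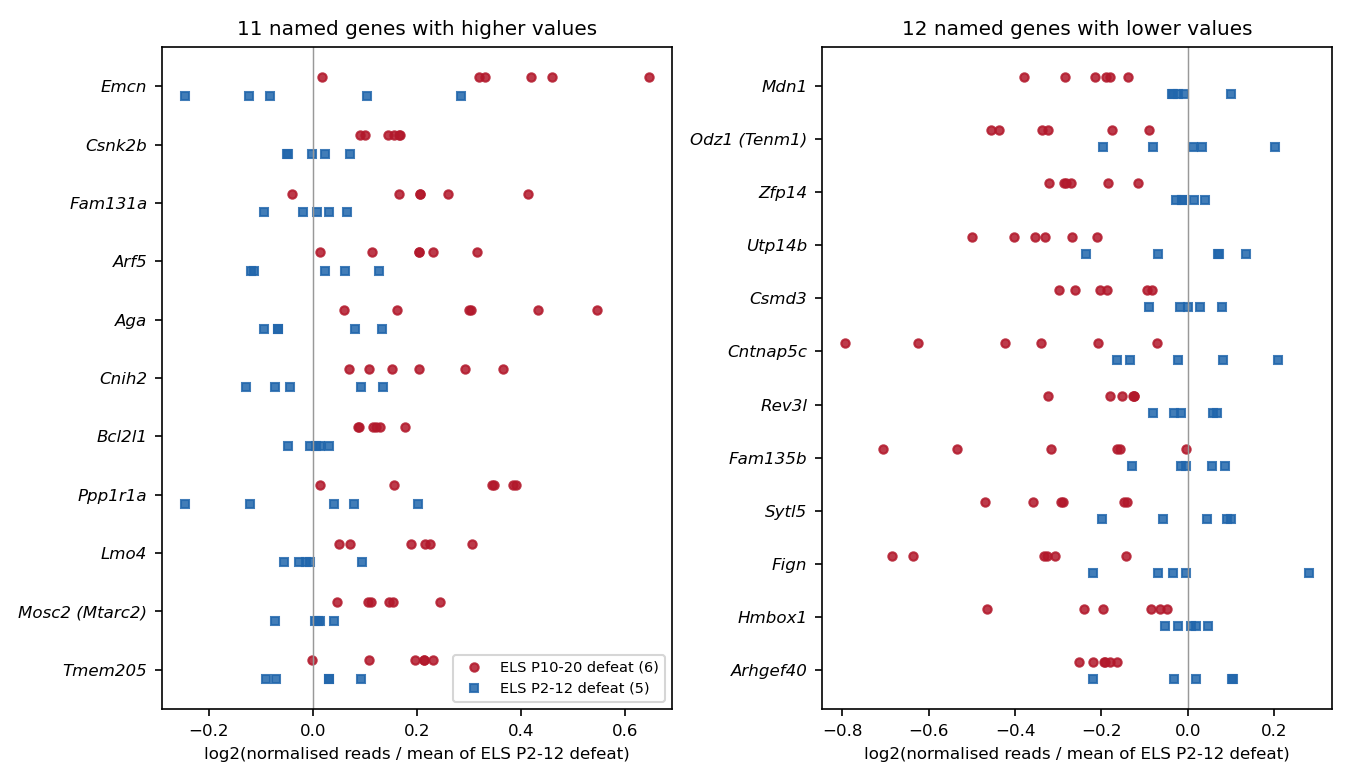
The named genes of smallest p between the windows, with each defeated ELS library drawn as log2 of its normalised reads over the P2-12 mean, P10-20 as circles above P2-12 as squares. Csnk2b, Bcl2l1 and Mosc2 show no overlap on the higher side, and Mdn1, Zfp14 and Rev3l none on the lower side.

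Length of the transcript went with the direction. Genes with a mean of at least 50 normalised reads were ranked by exonic length (GENCODE vM1, all exons of a gene merged) and split into 5 bins of 1603 genes. The median log2 fold change was 0.05 in the shortest bin (median length 1523 bases), 0.02, 0.01 and -0.00 in the next bins and -0.03 in the longest (median length 8360 bases). At an unadjusted p under 0.05, 167 genes of the shortest bin had higher and 23 lower values after P10-20 ELS, and 10 of the longest bin had higher and 142 lower. Without P2-12 replicate 3 the shortest bin had 91 genes higher and the longest 82 lower. In the longest bin the higher count was 35 without P10-20 replicate 1, 23 without P10-20 replicate 6, 15 without P2-12 replicate 2 and 26 without P2-12 replicate 5. The named genes shared this pattern: median exonic length was 1813.5 bases for the 12 with higher values and 5426.5 for the 12 with lower values.

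Each library's mean over the longest bin minus that over the shortest, on the log2 scale after each gene was centred on its mean over libraries, differed between libraries. P10-20 replicates 1 and 2 had -0.236 and -0.0938, while the other 4 P10-20 libraries lay between -0.0194 and 0.0624 and the P2-12 libraries had 0.0146, 0.0194, 0.0598, 0.0347 and 0.0138. Standard-reared defeated replicates 5 and 6, at -0.0721 and -0.0694, lay near P10-20 replicate 2. Without P10-20 replicates 1 and 2, a choice made after the values were seen, the shortest bin had 91 genes higher and 41 lower and the longest 61 higher and 93 lower. The median log2 fold change was then 0.015 in the shortest bin and 0.001 in the longest, against 0.047 and -0.032 with all libraries, so most of the gradient rested on these 2 libraries. With the difference as a covariate, the counts were 71 higher and 44 lower in the shortest bin and 86 higher and 74 lower in the longest. Because the covariate was built from these same bins, it removes their mean difference by construction. These counts therefore do not test the length pattern, and values given below with this covariate carry the same limit. In undefeated mice the median was -0.02 in the shortest bin and -0.01 in the longest. Mdn1 had a log2 fold change of -0.20 without the 2 libraries and -0.18 with the covariate, and Emcn had 0.42 with it. Of the other named genes, 3 moved by more than 1.5 times: Fam135b had -0.16 without the 2 libraries and -0.19 with the covariate, Hmbox1 -0.10 and -0.11, and Rev3l -0.14 and -0.11. What gave the 2 libraries their length profile was not tested.

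**Figure D2:**
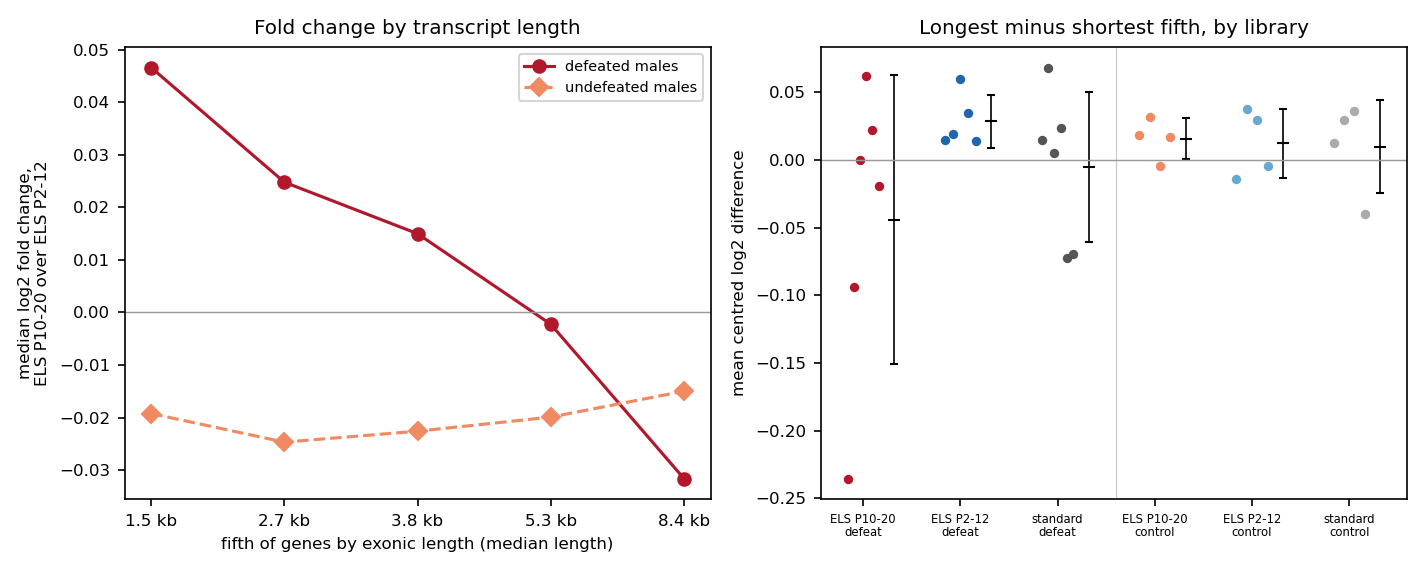
Median log2 fold change between the windows by bin of exonic length in defeated and undefeated mice, beside the long-minus-short difference of every male NAc library (centred log2 units, bars for mean ± SD). The defeated medians go from 0.05 in the shortest bin to -0.03 in the longest, and P10-20 replicate 1 stands lowest at -0.236.

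Genes of the indirect pathway had higher values after P10-20 ELS in 3 of the 4 members tested (49.3% of all genes were higher), none past the adjusted threshold. Penk, the enkephalin precursor (chr4:4133536-4138815), had 42386 to 64541 normalised reads in the P10-20 group (median 54206), against 36299, 50249, 43694, 47461 and 50650 in the P2-12 group. All but P10-20 replicate 6 lay above every P2-12 library, and the log2 fold change was 0.25 ± 0.09 (SE, adjusted p = 0.609). Adora2a, the adenosine receptor of indirect pathway neurons (chr10:75316877-75334792), had 9450 to 14204 normalised reads after P10-20 ELS (median 12112), against 7694, 11257, 8839, 10808 and 11829 after P2-12 ELS. P2-12 replicates 1 and 3 were the lowest of the 11 for Adora2a, and the groups overlapped (log2 fold change 0.27, adjusted p = 0.632). Gpr6, an orphan receptor that raises cAMP in these neurons (chr10:41069977-41072290), had 3133 to 4102 normalised reads in the P10-20 group (median 3827), against 2777, 3545, 2559, 3262 and 3894 in the P2-12 group. Its order was much the same, with P2-12 replicates 1 and 3 lowest and replicate 5 high among the P10-20 values (log2 fold change 0.23, adjusted p = 0.632). Ttc12, the neighbour of Drd2, had a log2 fold change of -0.10 (adjusted p = 0.87).
The 250 bases before the Gpr6 start are shown because Gpr6 and Adora2a both raise cAMP, with the cAMP response element TGACGTCA in capitals (RefSeq, GRCm38.p6, chr10:41072291-41072540, minus strand).
Gpr6 promoter: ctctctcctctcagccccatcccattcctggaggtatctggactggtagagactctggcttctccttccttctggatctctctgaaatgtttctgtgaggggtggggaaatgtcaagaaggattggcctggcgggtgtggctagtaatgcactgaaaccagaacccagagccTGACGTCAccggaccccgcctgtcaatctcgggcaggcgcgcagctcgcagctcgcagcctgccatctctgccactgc
The element begins 78 bases before the start. It is a match of letters, present in 1.55% of windows of this length.

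Signalling genes that both kinds of projection neuron share had higher mean values after P10-20 ELS in 12 of 12 members tested, with a median log2 fold change of 0.15. Over all genes 49.3% were higher, with a median of -0.00. Ppp1r1b (chr11:98348406-98357796) had 35473 to 50391 normalised reads in the P10-20 group (median 45929), against 29579, 41186, 34880, 41903 and 44889 in the P2-12 group. It was the 1 member with an unadjusted p under 0.05 (log2 fold change 0.23, adjusted p = 0.643), where 3.53% of all genes were higher. Among the others were Meis2, a homeobox factor (0.10), Ptpn5, the striatal-enriched phosphatase (0.17), Arpp21, a substrate of protein kinase A (0.15), and the phosphodiesterases Pde1b (0.15) and Pde10a (0.11). Of 3 direct pathway genes, Eya1 had a log2 fold change of 0.24 (adjusted p = 0.654), the muscarinic receptor Chrm4 0.12 and Sfxn1 -0.01.

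Summed over the 12 shared genes, P10-20 libraries ran from 270633 to 363050 normalised reads and P2-12 libraries had 234625, 304841, 271926, 308749 and 350702. P10-20 replicate 6 and P2-12 replicate 1, lowest of their groups in this sum, were the highest in cortical glutamate neuron markers, at 6225 and 4098. Over the 29 male NAc libraries, the log2 sum of cortical markers had a Pearson r of -0.515 with that of the shared genes. With the log2 sum of the indirect pathway it had -0.595. The part of neighbouring tissue in these values was not tested. Without P10-20 replicate 6 and P2-12 replicate 1, a choice made after the values were seen, the median log2 fold change was 0.23 for the indirect pathway and 0.13 for the shared genes. The shared median also depended on single libraries: it was 0.08 without P2-12 replicate 1 and 0.22 without P2-12 replicate 5, with 0 to 9 of 12 members at unadjusted p under 0.05. The indirect pathway median was 0.24, and it lay between 0.17, without P2-12 replicate 1, and 0.30, without P10-20 replicate 6. With all libraries, 3 of its 4 members were higher at unadjusted p under 0.05 (3.53% of all genes were). That count was 1 without P10-20 replicate 3 or 5 or P2-12 replicate 3, and 0 without P2-12 replicate 1. It was also 0 without P10-20 replicates 1 and 2 together. The direct pathway median of 0.12 was 0.03 without P2-12 replicate 1 and 0.08 without P10-20 replicate 5.

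**Figure D3:**
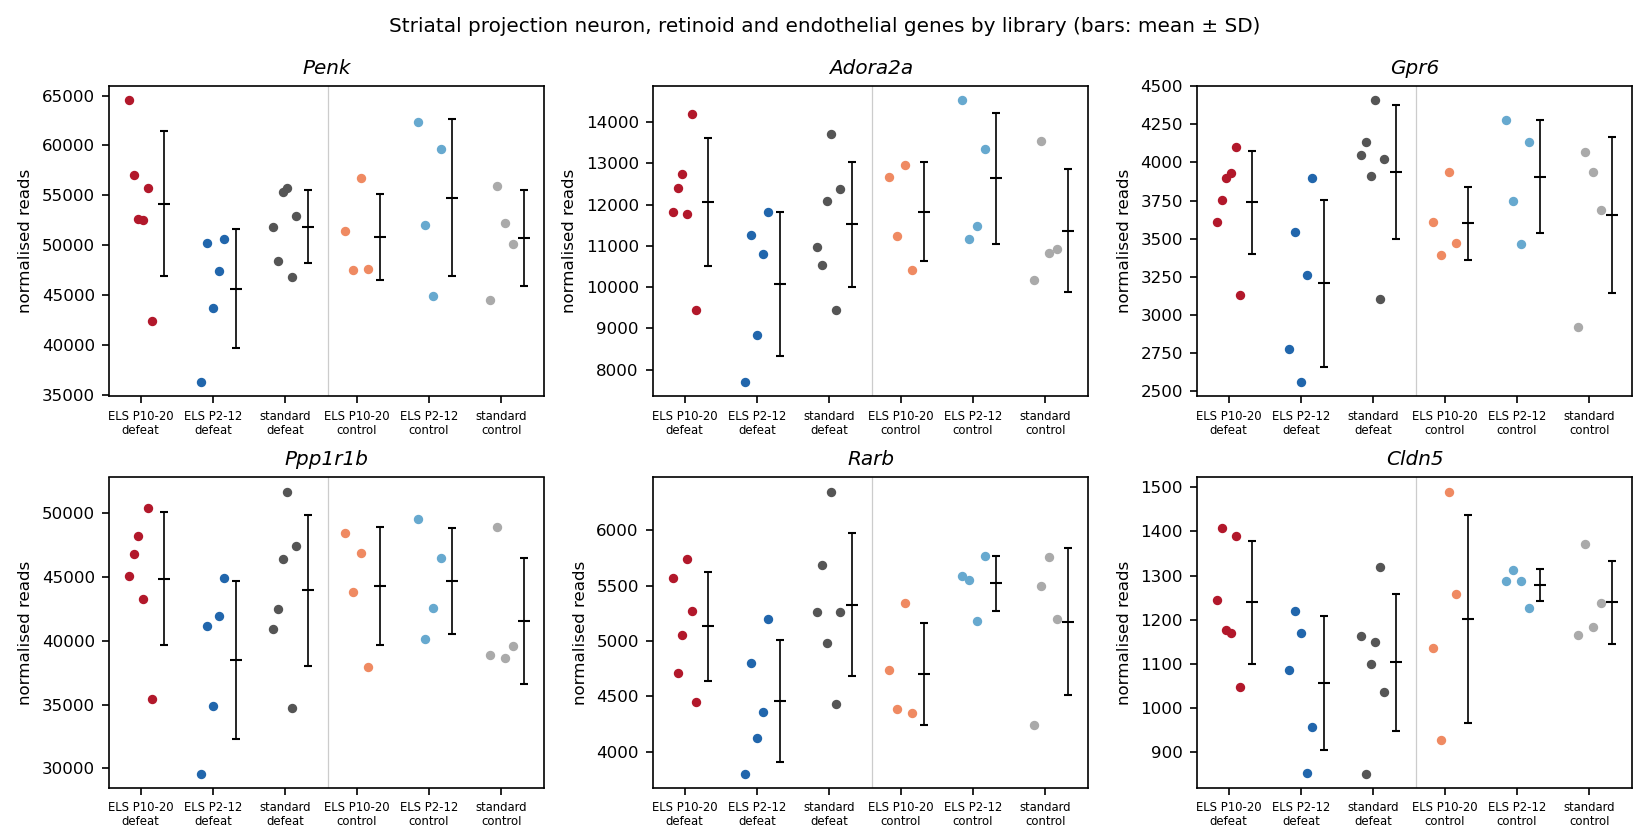
Normalised reads of Penk, Adora2a, Gpr6, Ppp1r1b, Rarb and Cldn5 in every male NAc library, in 6 groups by rearing and adult condition, with bars for mean ± SD. For each gene the defeated P2-12 mean is the lowest of the 4 ELS groups, and the defeated P10-20 and P2-12 points overlap.

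Retinoic acid acts on striatal neurons through nuclear receptors, and Rarb, retinoic acid receptor beta, is a well-known striatal member. Of 11 genes of retinoic acid metabolism and reception, 7 had higher and 4 lower values after P10-20 ELS, with a median log2 fold change of 0.14 and 4 members at unadjusted p under 0.05, all higher (3.53% of all genes were higher at that p). Without P2-12 replicate 1, 1 member was. Rarb had 4448 to 5737 normalised reads after P10-20 ELS (median 5164), against 3799, 4801, 4120, 4358 and 5199 after P2-12 ELS. The groups overlapped, the log2 fold change was 0.21, and it did not pass the adjusted threshold. Crabp2, a low-abundance retinoic acid carrier, had 41.9 to 69.7 normalised reads in the P10-20 group (median 51.2), against 22.7, 26.7, 35.4, 50.1 and 41.9 in the P2-12 group, a log2 fold change of 0.60 (adjusted p = 0.609). Rarg followed at 0.15 (adjusted p = 0.654), while the retinoid-synthesising enzyme Aldh1a1 had -0.10 and the receptor Rxra -0.07. The list median was 0.06 without P2-12 replicate 3 and 0.06 without P10-20 replicate 2.

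Of the vessel markers, 12 of 12 endothelial and blood-brain barrier genes had higher values after P10-20 ELS, with a median log2 fold change of 0.07 and unadjusted p under 0.05 for Emcn and Cldn5. Of all genes, 49.3% had higher values and 3.53% were higher at that p. Cldn5, the tight junction claudin of brain endothelium, had 1048 to 1407 normalised reads in the P10-20 group (median 1210), against 1085, 1220, 1170, 852 and 956 in the P2-12 group. P2-12 replicates 4 and 5 were below every other library, and the log2 fold change was 0.23 (adjusted p = 0.643). Kdr, the main receptor for vascular endothelial growth factor, had 0.20 and Pecam1 0.11, while the glucose transporter Slc2a1 had 0.02 and the efflux pump Abcb1a 0.01. The endothelial median was 0.02 without P2-12 replicate 4, 0.04 without P10-20 replicate 3 and 0.05 without P10-20 replicate 5. A single member was under an unadjusted p of 0.05 without P10-20 replicate 1, 2 or 5 or P2-12 replicate 4 or 5. Markers of other non-neuronal cells, which can come from the edge of a punch, also differed between libraries. The 9 genes of meninges and fibroblasts had a median of 0.17. Their summed level reached 5834 in P10-20 replicate 4, a library with 4096 normalised reads of Igf2 and 950 of Prlr. The next highest of the 11 sums was 3342, in P10-20 replicate 6. By the median over the 9 genes the order was the other way, at 0.39 log2 units above the P2-12 mean in replicate 4 and 0.58 in replicate 6. Ependymal genes, of the ventricle wall, had a median of -0.23, with sums of 330 to 1003 in the P10-20 group (median 545) and 563 to 932 in the P2-12 group (median 701). The meningeal median was 0.30 without P10-20 replicate 3, 0.09 without P10-20 replicate 6 and 0.11 without P2-12 replicate 4. The ependymal median was -0.12, -0.44 and -0.14 without P10-20 replicates 1, 4 and 5 and -0.15 without P2-12 replicate 4. None of the 9 and 7 members reached an unadjusted p under 0.05 with all libraries, and the part of these tissues in the endothelial values was not tested.

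Cytosolic ribosomal protein genes had higher values after P10-20 ELS in 11 of 11 members, with a median log2 fold change of 0.07. Rpl6 had 6200 to 7163 normalised reads in the P10-20 group (median 6383), against 5892, 6527, 5761, 6149 and 5940 in the P2-12 group, and Rpl6 and Rpl13 were the members under an unadjusted p of 0.05 (both 0.11, adjusted p = 0.618 and 0.62), where 3.53% of all genes were higher. That count was 0 without P10-20 replicate 1 or 2 or P2-12 replicate 3, 1 without P2-12 replicate 4 and 4 without P10-20 replicate 5 or 6 or P2-12 replicate 5; the median was 0.04 without P10-20 replicate 1. These are short transcripts, and the list median was 0.01 with the long-minus-short difference as a covariate. Without P10-20 replicates 1 and 2, a choice made after the values were seen, the list median was 0.02. In that setting 0 members were higher at an unadjusted p under 0.05. Many of these genes have processed copies in the genome that can take reads. Chaperones and stress genes of the endoplasmic reticulum had 9 of 9 members higher, with a median of 0.04 and groups that did not overlap for a pair of them (0.229% of all genes were higher with no overlap). The median was 0.01 without P2-12 replicate 3 and 0.06 without P2-12 replicate 2 or 4. Dnajb11, a co-chaperone of BiP, had 1356 to 1451 normalised reads in the P10-20 group (median 1396), against 1285, 1291, 1314, 1289 and 1267 in the P2-12 group (log2 fold change 0.12, adjusted p = 0.609). Ddit3, the stress-induced transcription factor CHOP, had 812 to 881 normalised reads in the P10-20 group (median 825), against 788, 742, 730, 734 and 807 in the P2-12 group (log2 fold change 0.13, adjusted p = 0.609). The lowest P10-20 library stood just above the highest P2-12 library for each. Ndufa1, an X-linked subunit of respiratory complex I, was also separate, with 1632 to 1879 normalised reads in the P10-20 group (median 1701), against 1587, 1519, 1504, 1604 and 1608 in the P2-12 group, a log2 fold change of 0.13. It was the 1 separate member of 8 oxidative phosphorylation genes, of which 7 were higher and 1 lower (49.3% of all genes were higher). Their median was 0.03, and -0.02 with the length covariate.

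Enzymes that set or remove methyl groups on histone H3 lysine 4, a mark the series also profiled in another region, had 3 higher and 9 lower of 12, with a median log2 fold change of -0.03, and of -0.06 to -0.01 on leaving out single libraries. Kmt2c, a methyltransferase of enhancers, had 3181 to 4265 normalised reads in the P10-20 group (median 4164), against 4377, 4690, 4482, 4644 and 4343 in the P2-12 group. The groups did not overlap, with P10-20 replicate 1 far below the rest (log2 fold change -0.17, adjusted p = 0.609). Kmt2a, which encodes MLL1, had -0.15 (adjusted p = 0.643). With the length covariate the list median was -0.00 and no member had lower values at an unadjusted p under 0.05. Without P10-20 replicates 1 and 2 the median was also -0.00, and 1 member was lower at that p. With all libraries 2 of 12 were (4.09% of all genes). In a separate list of DNA methylation and histone deacetylation genes, 6 of 12 had higher and 6 lower values, with a median of -0.01. There Tet1, a DNA demethylation enzyme, had -0.16 (adjusted p = 0.621).

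Receptor and matrix genes went both ways. GABA-A receptor subunits Gabrb1 and Gabrg1 had log2 fold changes of -0.19 and -0.30, while Gabra4 of projection neurons had 0.14 (adjusted p = 0.618, 0.654 and 0.643). In perineuronal nets and matrix, the aggrecan core protein Acan had -0.31, the link protein Hapln1 0.13 and the aggrecanase Adamts5 0.24 (adjusted p = 0.636, 0.618 and 0.609). Vgf, the precursor of secreted neuropeptides and a target of neurotrophic signalling, had 6709 to 7615 normalised reads in the P10-20 group (median 7513), against 6008, 6036, 6554, 7325 and 6337 in the P2-12 group. Its P10-20 libraries were all above the P2-12 mean, with a log2 fold change of 0.19 (adjusted p = 0.609). The list of neurotrophic factors and receptors had 2 higher and 4 lower of 6 members, with a median of -0.08. At an unadjusted p under 0.05, 1 of the 6 was higher (3.53% of all genes were). That median was -0.13 without P2-12 replicate 3 and -0.04 without P2-12 replicate 4. Zic1, a zinc finger factor of septal and preoptic neighbours, had 557 to 849 normalised reads in the P10-20 group (median 637), against 956, 716, 1178, 1891 and 595 in the P2-12 group. P2-12 replicate 4 stood highest for Zic1, and the log2 fold change was -0.59 (adjusted p = 0.638).

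Genes that stress hormones or recent activity switch on had list medians near 0. Of 12 glucocorticoid-induced genes, 6 had higher and 6 lower values, with a median log2 fold change of -0.00; Fkbp5, a co-chaperone of the glucocorticoid receptor, had 0.03 ± 0.09 (SE). Among 16 immediate early genes the median was 0.01, and Sik1, a salt-inducible kinase, was the one at unadjusted p under 0.05 (-0.19, adjusted p = 0.631). Myelin, astrocyte and microglia lists had medians of -0.01, -0.02 and 0.04 with no member under an unadjusted p of 0.05. Across the 35 lists, 301 of the 521 listed genes were tested, 18 medians lay above 0, and no member passed the adjusted threshold.

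**Figure D4:**
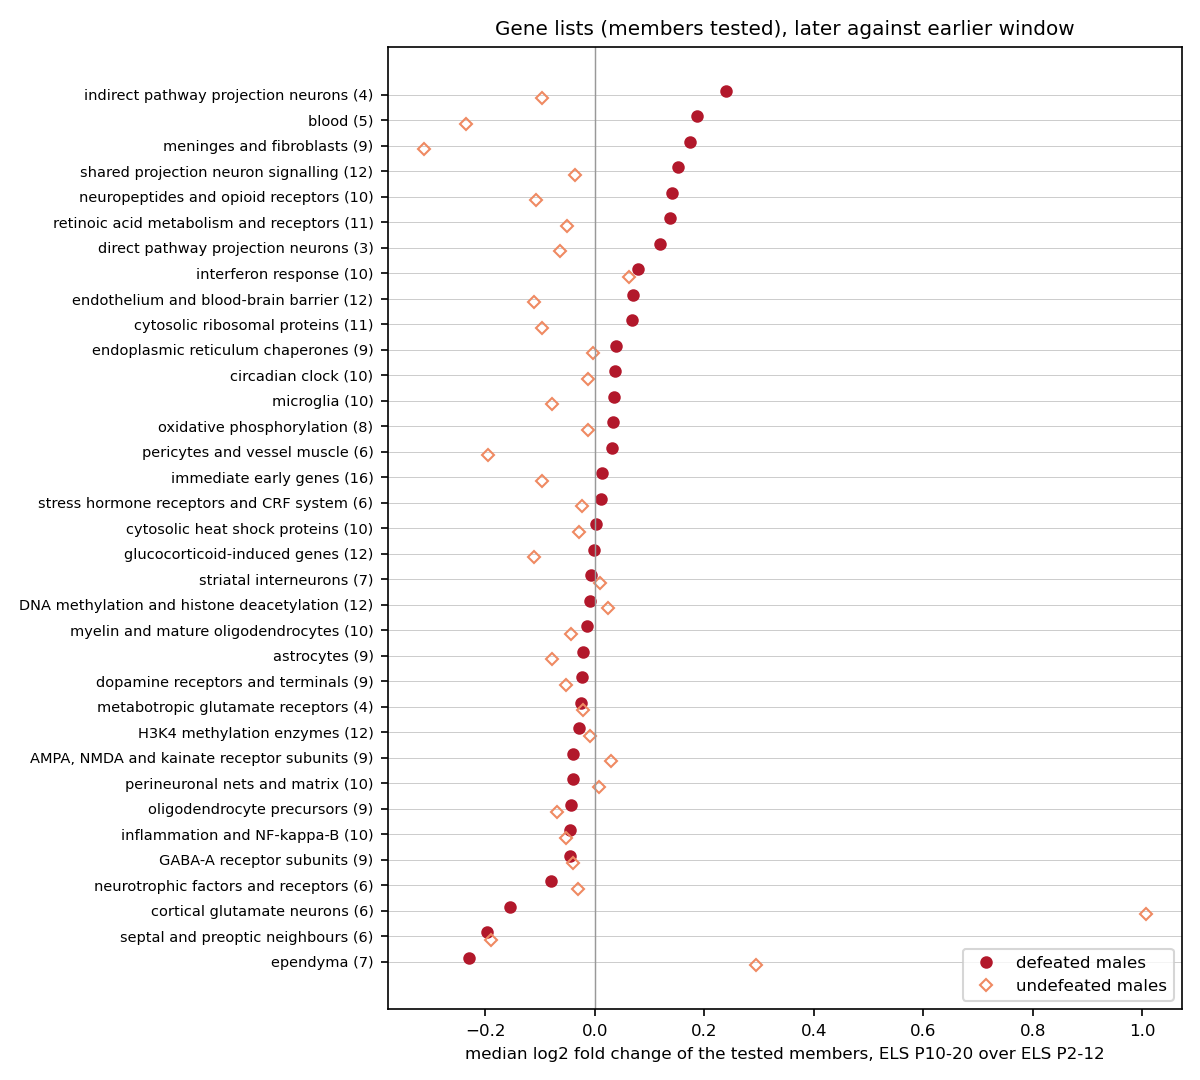
Median log2 fold change of each of the 35 gene lists between the windows in defeated mice (filled circles) and in undefeated mice (open diamonds). Indirect pathway genes have the medians 0.24 in defeated and -0.10 in undefeated mice, and endothelial genes 0.07 and -0.11.

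Undefeated libraries show the same window contrast in mice that met no adult stress. In them limma also called 0 genes (0%), with 705 genes higher (5.04%) and 365 lower (2.61%) at unadjusted p under 0.05, 7.64% in all. With only 4 libraries a group, 283 genes (2.02%) had every P10-20 value higher and 300 (2.14%) every P10-20 value lower. Without undefeated P10-20 replicate 3, limma called 70 genes; edgeR called 0 in all libraries. Of the 12 genes of smallest p with higher values in defeated mice, 2 had the same direction in undefeated mice, and of the 12 with lower values 6 did, among them Odz1 (-0.17, adjusted p = 0.603) and Csmd3 (-0.13, adjusted p = 0.554). Mdn1 went the other way, at 3561 ± 201 normalised reads in undefeated P10-20 mice and 3283 ± 133 in undefeated P2-12 mice (SD, n = 4 each), a log2 fold change of 0.12. Bcl2l1 did as well, with 3141 ± 208 in undefeated P10-20 mice and 3430 ± 96.5 in undefeated P2-12 mice, a log2 fold change of -0.13. Of the 1066 genes at unadjusted p under 0.05 in defeated mice, 38.4% had the same sign in undefeated mice. Over 8024 genes the contrasts had a Pearson r of -0.190 and a Spearman rank correlation of -0.151, across genes that are not independent replicates.

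Medians of 23 of the 35 lists had opposite signs in defeated and undefeated mice. Undefeated mice had medians of -0.10 for the indirect pathway, -0.04 for the shared projection neuron genes and -0.05 for retinoic acid genes. The 12 endothelial genes were all lower after P10-20 ELS without defeat (median -0.11, Cdh5, Flt1 and Abcb1a at unadjusted p under 0.05), and so were the 11 ribosomal protein genes (median -0.10, 4 members at unadjusted p under 0.05). Rarb had -0.23 (adjusted p = 0.581) there; in defeated mice it had 0.21.

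The difference between the window contrasts was tested as an interaction, and no gene passed (smallest adjusted p 0.318, 0% called; edgeR 0, DESeq2 16), with 539 genes positive (3.85%) and 778 negative (5.56%) at unadjusted p under 0.05, 9.41% in all. The 3 positive genes of smallest p were Bcl2l1 (0.25), Zfp706 (0.27) and Yy1, a zinc finger transcription factor (0.22). On the negative side were Mdn1 (-0.35), Ccdc159 (-0.68) and Map4k2, a kinase upstream of JNK (-0.39), all 6 with an adjusted p of 0.318. Ccdc159 had 238 to 274 normalised reads in defeated P10-20 mice, against 255, 302, 314, 303 and 352 in defeated P2-12 mice, and averaged 338 ± 70.8 in undefeated P10-20 mice and 245 ± 21.9 in undefeated P2-12 mice (SD, n = 4 each). It overlaps the end of Tmem205 on chromosome 9, so unstranded reads there cannot be told apart. Leaving out undefeated P10-20 replicate 3 gave 26 interaction calls, Mdn1, Bcl2l1, Ccdc159, Zfp706 and Map4k2 among them.

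**Figure D5:**
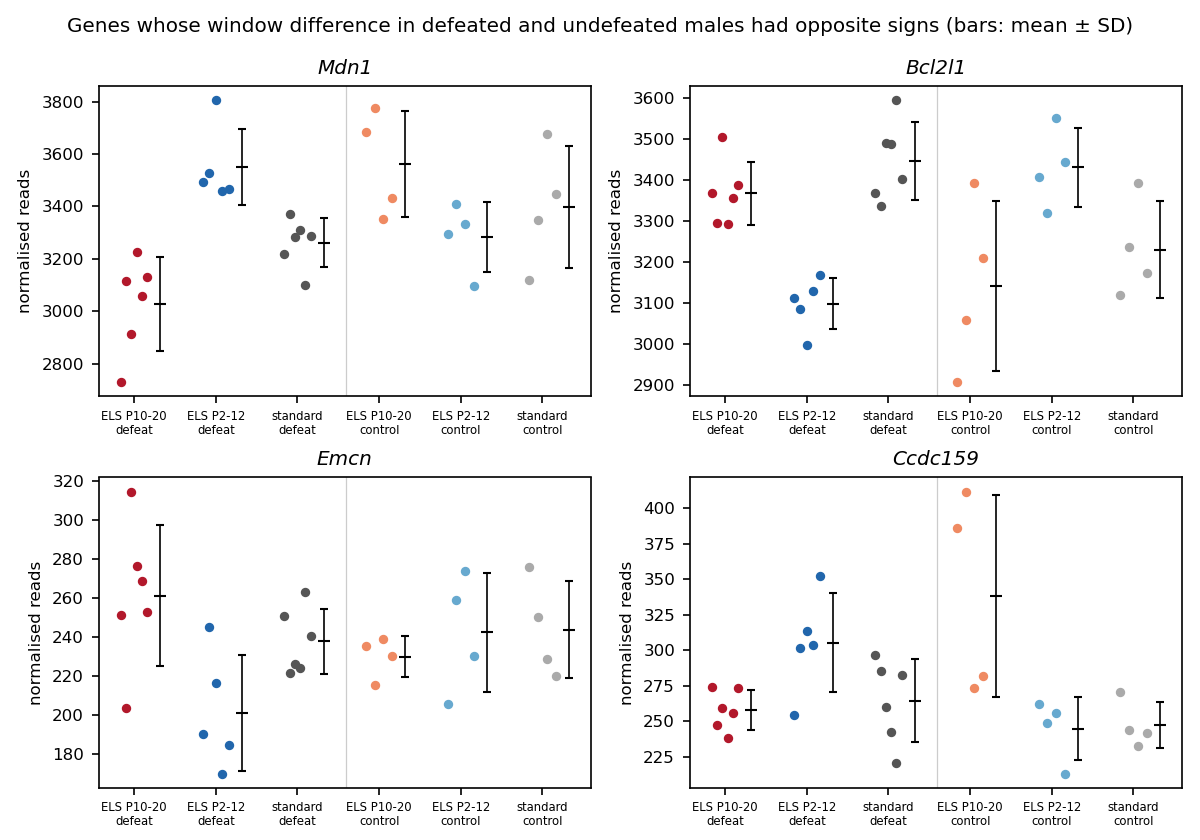
Normalised reads of Mdn1, Bcl2l1, Emcn and Ccdc159 in every male NAc library in 6 groups, with bars for mean ± SD. Mdn1 averages 3029 and 3550 in defeated P10-20 and P2-12 mice and 3561 and 3283 in undefeated ones.

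Standard-reared defeated mice place each window on the same scale, and both contrasts below use the same 6 standard libraries. limma and edgeR called 0 genes in each (0%), with 264 genes higher and 383 lower for P10-20 (1.89% and 2.74%, 4.62% in all) and 380 higher and 462 lower for P2-12 (2.71% and 3.3%, 6.01% in all) at unadjusted p under 0.05. Mdn1 averaged 3029 ± 180 normalised reads after P10-20 ELS, 3550 ± 146 after P2-12 ELS and 3261 ± 93.5 in standard-reared mice (SD, n = 6, 5 and 6), so the standard mean lay between the windows. For Bcl2l1 the means were 3367 ± 77.9, 3098 ± 63.3 and 3447 ± 95.4 in the same order, with log2 fold changes from standard of -0.03 for P10-20 and -0.15 for P2-12 (adjusted p = 0.682). Penk averaged 54164 ± 7244 after P10-20 ELS, 45670 ± 5931 after P2-12 ELS and 51866 ± 3635 in standard-reared mice. Cntnap5c had log2 fold changes of 0.02 for P10-20 and 0.42 for P2-12 (adjusted p = 0.682). Of the 12 named genes with higher values, 9 lay further from standard after P2-12 ELS than after P10-20 ELS, and 6 of the 12 with lower values did. Fign went the other way, at -0.31 for P10-20 and 0.08 for P2-12, as did Lmo4 at 0.14 and -0.04. List medians from standard for P10-20 and P2-12 were -0.01 and -0.20 for the indirect pathway, 0.01 and -0.15 for shared projection neuron genes and -0.00 and -0.09 for retinoic acid genes. In other lists P10-20 lay further away, with 0.15 and -0.08 for meninges and fibroblasts and -0.20 and 0.11 for ependyma.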

How the data were processed

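Poly-A RNA of pooled NAc punches was sequenced with an unstranded kit, per the labels' protocols, so reads of overlapping or antisense genes cannot be told apart. The authors deposited normalised reads, a signal made by scaling the read count of each gene with a factor for its library. The submitters' processing notes name HISAT, HTSeq and mm10 and give no versions, and which tool made the factors is not stated. Divided by the worth of 1 read, 100% of positive values came out whole within 0.001, so reads and depths could be recovered, 13.6 to 23.9 M over the 29 male NAc libraries. The table used here held 16239 genes, 16124 with a symbol. All 58 pairs of libraries within a group differed by more than sampling noise (lowest chi-square per gene 3.25, over genes of 10 or more reads) and were counted as separate. Library labels give no batch.

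limma 3.58.1 (R 4.3.3, trend and robust) was fitted to log2(normalised reads + 1) in all 29 libraries, with 1 coefficient per group, over the 14000 genes of highest mean, with Benjamini-Hochberg adjusted p under 0.05; p-values in the text come from this fit unless another tool is named. This scale understates changes of low genes. The named genes are the 12 of smallest p on each side, and 3 on each side of the interaction, with a mean of at least 20 normalised reads and no predicted, clone-named, small RNA or pseudogene entries, plus the 2 to 4 members of smallest p of each list described and others of it as examples. A few genes under this rule are left out of the text. The members and lists were chosen with earlier results of these data known. Alternatives were no filter, a minimum mean of 10, log2(value + 10), quantile normalisation, edgeR 4.0.16 and DESeq2 1.42.0 on those reads, sva 3.50.0 with 2 surrogate variables, array weights, the 11 libraries alone and leaving out each library. Chosen after seeing the data were the length covariate and leaving out the 2 P10-20 libraries lowest in long transcripts, the 2 with fewest reads, or the library of each group richest in cortical markers. The scripts were tested on simulated data. Coordinates and promoters are RefSeq's on GRCm38.p6, and exonic lengths GENCODE vM1's.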

Additional observations from a re-analysis of the deposited data

Results flagged for a closer look

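Of 72 sets of libraries examined for a single value far from the rest, 3 held one, and chance alone gives about 1 in 20. P2-12 defeat replicate 3 had 3806 normalised reads of Mdn1, with the next library of its group at 3529, so that the gap took 0.796 of the group's range. P10-20 defeat replicate 1 had 1666 normalised reads of Rev3l, with the next library of its group at 1841, a gap of 0.71 of the range. P10-20 defeat replicate 4 had 5834 normalised reads summed over the genes of meninges and fibroblasts, with the next at 3342, a gap of 0.668 of the range. Without P2-12 replicate 3, Mdn1 had a log2 fold change of -0.20.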

How the results depend on the processing

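For the window contrast in defeated mice, DESeq2 called 1 gene and limma on the 11 libraries alone 1, against 0 under each of the other alternatives, leaving out any library included (0 to 0). Counts at unadjusted p under 0.05 ran, over single libraries left out, from 303 (without P2-12 replicate 3) to 616 higher (without P10-20 replicate 4) and from 399 to 670 lower. For the interaction, DESeq2 called 16 genes and array weights 2, Ccdc159 and Mdn1. Leaving out single libraries gave 0 to 26 interaction calls and 0 to 70 calls between undefeated windows, both highest without undefeated P10-20 replicate 3; the contrasts with standard-reared mice stayed at 0 to 0. The cause was not tested. Of 576 values of named genes over 24 settings, 575 kept their side of the threshold, 1 passed it (Mdn1 in DESeq2) and 0 were reversed. Because the named genes were chosen by smallest p in the same libraries, a reversal was unlikely from the start. Of 840 list medians, 834 moved by less than 1 SD between libraries. That SD was larger than the median itself for shared projection neuron (0.18 against 0.15), endothelial (0.12 against 0.07) and ribosomal protein genes (0.08 against 0.07). The ribosomal median thus counted as unmoved at 0.01 with the length covariate, and the count does not show that medians kept their size. No paired analysis was possible because the title numbers of the libraries are unique. No detection limit was estimated for these library numbers or this depth.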
